A study of Mus musculus with 6 samples.

Results

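Imprinted genes are a set of mammalian genes transcribed mainly from the copy inherited from 1 parent. A panel of 45 such mouse genes was followed in fetal gonads carrying a conditional Sox9 mutation (the gene codes for a factor that Sertoli cells need) and in wild-type gonads. Members were the genes on the panel with a probe set annotated to that gene alone, and 37 of the 45 had one, out of 19937 genes measured in all. Mirg, Gnas, Snrpn and Ube3a lay on 4 probe sets shared with other genes and were not used. H19, Kcnq1ot1, Zrsr1 and Peg13, the other 4, had no probe set annotated to them in the table used here and were not analysed.

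RNA came from gonads of embryos at E13.5 (embryonic day), freed of the mesonephros and snap frozen, and was measured on 6 microarrays. Mutant gonads had the genotype Sox9flox/flox; Sf1:creTr/+, in which a Cre recombinase under regulatory sequence of Sf1 (Nr5a1), active in somatic cells of the gonad, acts on both floxed alleles of Sox9. They filled 3 arrays, numbered 3, 4 and 6, each a pool of 12 gonads. Wild-type gonads filled 3 arrays, numbered 1, 2 and 5, each a pool of 6 gonads. Both groups were on a mixed background of C57BL6/J and 129. Neither floxed alleles alone nor the Cre alone was in a control group, pool size went with genotype, and the labels name no embryo sex, litter or batch. P-values therefore measure the spread between these pools, which may be partly technical. The arrays read total RNA of each gene and cannot tell the maternal from the paternal copy, so "maternally expressed" and "paternally expressed" below are what is known of each gene in mouse, not a measurement here.

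Imprinting rests on DNA methylation that is laid down in the germ line at control regions, differs between egg and sperm, and is kept in somatic cells afterwards. In primordial germ cells these marks are erased and later written anew according to the sex of the embryo, so a fetal gonad mixes somatic cells with imprints and germ cells without them. Imprinted genes lie in clusters, and many act on fetal and placental growth: several paternally expressed members promote growth and several maternally expressed members restrain it. For some members (Ascl2, Tssc4, Cd81, Ppp1r9a, Gab1 in the placenta; Ddc in the heart; Ube3a and Trappc9 in the brain) imprinting is known mainly from other tissues than the gonad.

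Promoter sequences are shown for 5 members whose levels differed between the genotypes, the one with the largest rise, a pair of neighbours that rose together and the 2 with the largest falls. Each is 300 bases long, from 250 before to 50 after an annotated start, on the gene's own strand, 5′ to 3′, from RefSeq on GRCm38.p6. Capitals mark the CG dinucleotides, where DNA methylation sits in mammals. The windows are chr7:143502475-143502774 (minus strand) for Phlda2, chr7:6696383-6696682 (minus) for Zim1, chr7:6730370-6730669 (minus) for Peg3, chr12:109452573-109452872 (plus) for Dlk1 and chr6:5390160-5390459 (plus) for Asb4, for which the window with more CG of 2 was taken.
Phlda2: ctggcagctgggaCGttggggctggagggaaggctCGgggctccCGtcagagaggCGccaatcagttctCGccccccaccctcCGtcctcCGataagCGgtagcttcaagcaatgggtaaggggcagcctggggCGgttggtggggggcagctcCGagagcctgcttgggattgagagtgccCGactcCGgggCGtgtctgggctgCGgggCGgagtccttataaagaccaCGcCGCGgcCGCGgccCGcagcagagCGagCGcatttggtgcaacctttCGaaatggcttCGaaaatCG
Zim1: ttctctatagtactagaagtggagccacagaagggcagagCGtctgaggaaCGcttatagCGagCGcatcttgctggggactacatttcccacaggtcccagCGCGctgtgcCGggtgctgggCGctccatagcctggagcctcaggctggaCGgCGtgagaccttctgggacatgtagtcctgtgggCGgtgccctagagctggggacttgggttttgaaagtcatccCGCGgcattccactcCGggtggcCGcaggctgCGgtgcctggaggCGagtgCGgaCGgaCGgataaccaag
Peg3: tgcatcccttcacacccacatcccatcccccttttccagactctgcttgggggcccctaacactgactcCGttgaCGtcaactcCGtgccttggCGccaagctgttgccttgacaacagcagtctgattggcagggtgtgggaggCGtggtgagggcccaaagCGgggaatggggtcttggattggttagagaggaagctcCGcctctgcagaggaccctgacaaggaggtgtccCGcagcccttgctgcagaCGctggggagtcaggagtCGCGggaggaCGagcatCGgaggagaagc
Dlk1: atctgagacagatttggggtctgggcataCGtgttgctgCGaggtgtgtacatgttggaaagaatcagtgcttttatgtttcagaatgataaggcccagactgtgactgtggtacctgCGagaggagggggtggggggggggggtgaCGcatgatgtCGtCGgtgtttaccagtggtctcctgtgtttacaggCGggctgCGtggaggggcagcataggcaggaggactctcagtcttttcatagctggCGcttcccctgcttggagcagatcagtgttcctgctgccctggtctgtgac
Asb4: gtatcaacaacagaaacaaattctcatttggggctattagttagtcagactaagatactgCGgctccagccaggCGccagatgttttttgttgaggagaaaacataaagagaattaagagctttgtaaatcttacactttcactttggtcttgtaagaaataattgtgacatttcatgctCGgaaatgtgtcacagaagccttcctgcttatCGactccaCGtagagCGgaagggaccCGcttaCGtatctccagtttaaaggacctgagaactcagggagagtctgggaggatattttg

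Phlda2 had 26 CG dinucleotides in its window, Zim1 20, Peg3 13, Dlk1 9 and Asb4 8. The 3 genes that rose thus carried more CG here than the 2 that fell, but the order does not hold over the panel. Over all 15613 measured genes with such a window the median was 16, counting the window with most CG of each gene. It was 18.5 over the 30 members with a window, 20 over the 3 risers with a window (13 to 26) and 16 over the 4 that fell (8 to 26). By parental allele it was 23 over 13 maternally expressed members and 17 over 17 paternally expressed ones. These counts describe the sequence and say nothing of methylation in these gonads. The windows of Peg3 and Usp29, which start from opposite strands, overlap by 263 of their 300 bases, so that Peg3 and Usp29 share most of the sequence printed for Peg3.

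All levels are log2 values per probe set, and differences are mutant minus wild type with standard errors from limma. A gene is called where its Benjamini-Hochberg adjusted p over 28187 probe sets was under 0.05. A level of 6.67 log2 served as the background mark, because 95% of the 1208 probe sets for odorant and vomeronasal receptors averaged below it. Of the 37 members 10 were called, 6 higher and 4 lower in the mutant, which is 27.0%, against 6.94% of all 19937 genes. The members, and the lists below, were chosen with earlier results of these data known. The 6.94% takes in many genes near background. Both groups lay above the mark in 12548 of the 19937 genes, against 30 of the 37 members. In a fit of probe sets above the mark alone, 13.6% of genes were called. Of those 30 members 6 were called higher in that fit and 5 lower. The limit set by genes near background applies wherever 6.94% stands beside another list below. An unadjusted p under 0.05 was reached by 13 members, against 21.7% of all genes. By direction the shares of all genes were 2.64% higher and 4.30% lower. In 16 members the 3 mutant values lay wholly on 1 side of the 3 wild-type values, against 28.7% of all genes. The genes called higher were Phlda2, Zim1, Peg10, Cdkn1c, Peg3 and Kcnq1, and those called lower were Asb4, Dlk1, Plagl1 and Cd81.

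By parental allele, 4 of 16 maternally expressed members were called higher and 2 lower, and 2 of 21 paternally expressed members were called higher and 2 lower. The median difference was -0.02 log2 for maternally expressed and -0.10 for paternally expressed members, beside 0.004 over all genes. Called genes of either allele thus lay on both sides, and the medians of both groups lay close to 0. Median absolute differences were 0.44 log2 for maternally expressed, 0.16 for paternally expressed members and 0.15 for all genes. Whether the 2 alleles differ in this was not tested. Of the 16 maternally expressed members 7 lie in the Kcnq1 cluster, where the median absolute difference was 0.48. Below the background mark in both groups were 3 paternally and 0 maternally expressed members.

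**Figure D1:**
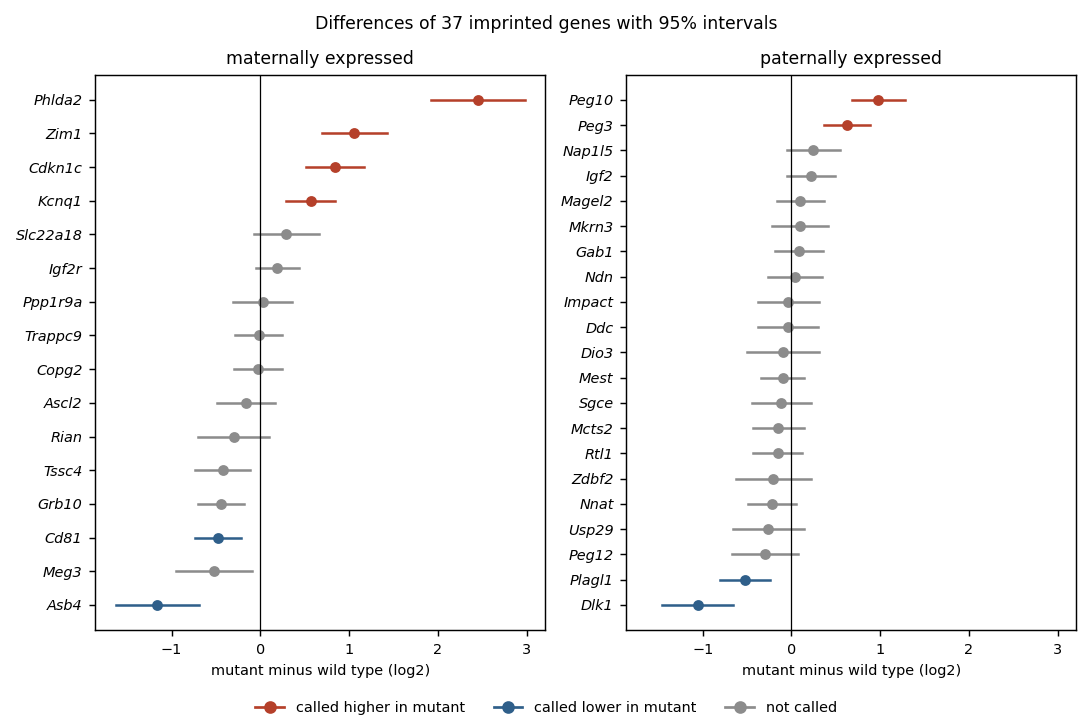
Differences between Sox9 mutant and wild-type gonads (log2, horizontal axis) for the 37 measured imprinted genes, with maternally expressed genes on the left and paternally expressed genes on the right. Points are limma estimates from 3 arrays per group and bars are 95% intervals; Phlda2 stands farthest from 0, at 2.45, and Asb4 lies at the other end, at -1.16.

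Some features of the arrays bear on all members. Sox9 measured 7.52, 7.78 and 7.60 log2 on mutant 3, 4 and 6, against 8.82, 8.81 and 9.20 on wild type 1, 2 and 5 (difference -1.31 ± 0.14, limma adjusted p = 0.00124), so that it stayed above the background mark on the mutant arrays. Of marker lists, 8 of 9 Sertoli cell genes, 4 of 5 fetal Leydig cell genes and 5 of 6 peritubular and interstitial genes were lower, while 7 of 7 pregranulosa genes were higher (1 peritubular gene was higher). The mean of the Sertoli list ran from 6.91 to 8.27 log2 on mutant arrays and 9.83 to 9.97 on wild-type arrays, and that of the Leydig list from 6.38 to 8.44 on mutant and 10.01 to 10.20 on wild-type arrays. The pregranulosa list ran from 9.10 to 9.31 on mutant and 7.28 to 7.40 on wild-type arrays, and the peritubular and interstitial list from 9.35 to 9.70 on mutant and 10.21 to 10.23 on wild-type arrays. For all marker lists here, the shares over all genes were 6.94% called, 21.7% at an unadjusted p under 0.05 and 28.7% without overlap. Of 10 germ cell genes 3 were higher and 2 lower, 9 had an unadjusted p under 0.05, and in none did the groups overlap. The 3 higher ones act at entry into meiosis or in it, with differences of 3.39 for Stra8, 2.55 for Rec8 and 2.34 log2 for Sycp3. The 2 lower ones were Dppa3 (-1.55) and Dnd1 (-0.83). Nanos2 (-1.24) and Pou5f1 (-0.58) also lay below wild type, without a call. In all, mutant values lay above wild type in 6 of the 10 and below in 4. Of the other lists, 1 of 4 adrenal cortex genes higher and 2 lower, 1 of 6 mesonephric genes higher and 1 lower, and 1 of 4 erythroid genes lower. None of 6 endothelial, 6 macrophage or 9 fetal liver genes was called by limma, with 3, 1 and 1 at an unadjusted p under 0.05. In 4, 2 and 2 of them the groups did not overlap. Wild type 5 stood apart in the liver list, at a mean of 9.21 log2, against 6.48 and 6.62 on wild type 1 and 2 and 6.49 to 6.61 on the mutant arrays, so calls are also given without it. Igf2 and Dlk1 are known to be strongly transcribed in fetal liver. The part of any of these cell types in the differences below was not tested, and in RNA of whole gonads fewer cells of a type and less RNA per cell cannot be told apart.

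Without wild type 5, 5 members were called higher and 2 lower. Peg3, Plagl1 and Cd81 lost their calls there, and Phlda2, Zim1, Peg10, Cdkn1c, Kcnq1, Dlk1 and Asb4 stayed called.

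**Figure D2:**
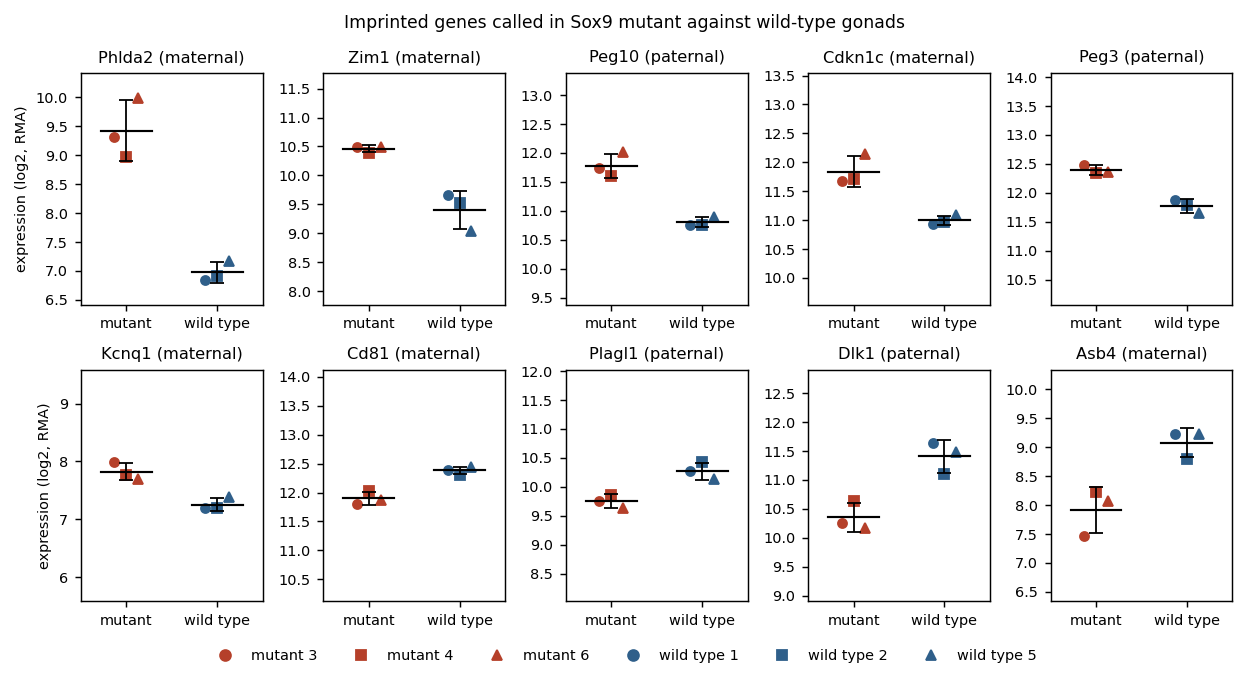
Expression (log2, vertical axis, each panel spanning 4 log2 units) of the 10 called imprinted genes on each of 3 Sox9 mutant arrays, left in each panel, and 3 wild-type arrays, right. Symbols mark the arrays and bars the mean ± SD; in each of the 10 genes the mutant and wild-type values do not overlap, with the widest gap in Phlda2.

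The Kcnq1 cluster, in which a paternally expressed non-coding RNA silences its neighbours on the paternal chromosome, held 4 of the 10 called members, out of 7 measured. All 7 are maternally expressed. Of the 4 called, 3 were higher and 1 lower, and the other 3 were not called. Phlda2, which encodes a small protein with a pleckstrin homology domain and restrains growth of the placenta, measured 9.32, 8.96 and 9.996 log2 on mutant 3, 4 and 6. On wild type 1, 2 and 5 it measured 6.84, 6.91 and 7.18, just above the background mark, where RMA values understate a difference. Each mutant array lay above every wild-type array, mutant 6 highest and mutant 4 lowest of the mutants. Phlda2 was higher by 2.45 ± 0.23 log2 (95% interval 1.92 to 2.98, limma adjusted p = 0.000732), which is 5.47-fold.

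Cdkn1c encodes p57KIP2, an inhibitor of cyclin-dependent kinases that restrains fetal growth. It measured 11.67, 11.70 and 12.14 log2 on mutant 3, 4 and 6, against 10.94, 10.96 and 11.09 on wild type 1, 2 and 5. The groups did not overlap, and mutant 6 stood above the other mutants, as for Phlda2. The rise was 0.84 ± 0.15 log2 (limma adjusted p = 0.0111), or 1.79-fold, and the call was lost without wild type 1 (limma adjusted p = 0.0607) and without wild type 5 and mutant 4 together (0.0508).

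Kcnq1, a voltage-gated potassium channel, measured 7.98, 7.77 and 7.70 log2 on the mutant arrays 3, 4 and 6 and 7.19, 7.19 and 7.38 on wild type 1, 2 and 5. Here mutant 6 was the lowest mutant and wild type 5 the highest wild type, still without overlap. It rose by 0.57 ± 0.12 log2 (limma adjusted p = 0.0290), and lost its call without mutant 3, mutant 4, wild type 1 or wild type 2 (limma adjusted p up to 0.123). The gene spans the antisense transcript Kcnq1ot1, and whether its probe set reads only 1 strand is not given in the sources used here.

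On the other side of Kcnq1 in chromosome order, 1 of 3 measured members was called. Cd81, a membrane protein of the tetraspanin family, measured 11.81, 12.03 and 11.87 log2 on mutant 3, 4 and 6, against 12.39, 12.31 and 12.44 on wild type 1, 2 and 5. It fell by 0.48 on the log2 scale (SE 0.11, limma adjusted p = 0.0417). The call was lost when any 1 array was left out (limma adjusted p up to 0.142) and after a second quantile normalization (0.0504). Tssc4, a spliceosome assembly factor, lay next to it with a difference of -0.43 ± 0.14 and no call (limma adjusted p = 0.126), although its groups did not overlap. Ascl2, a transcription factor of the trophoblast near background, differed by -0.16, and Slc22a18, a membrane transporter between Cdkn1c and Phlda2, by 0.29, neither of them called.

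**Figure D3:**
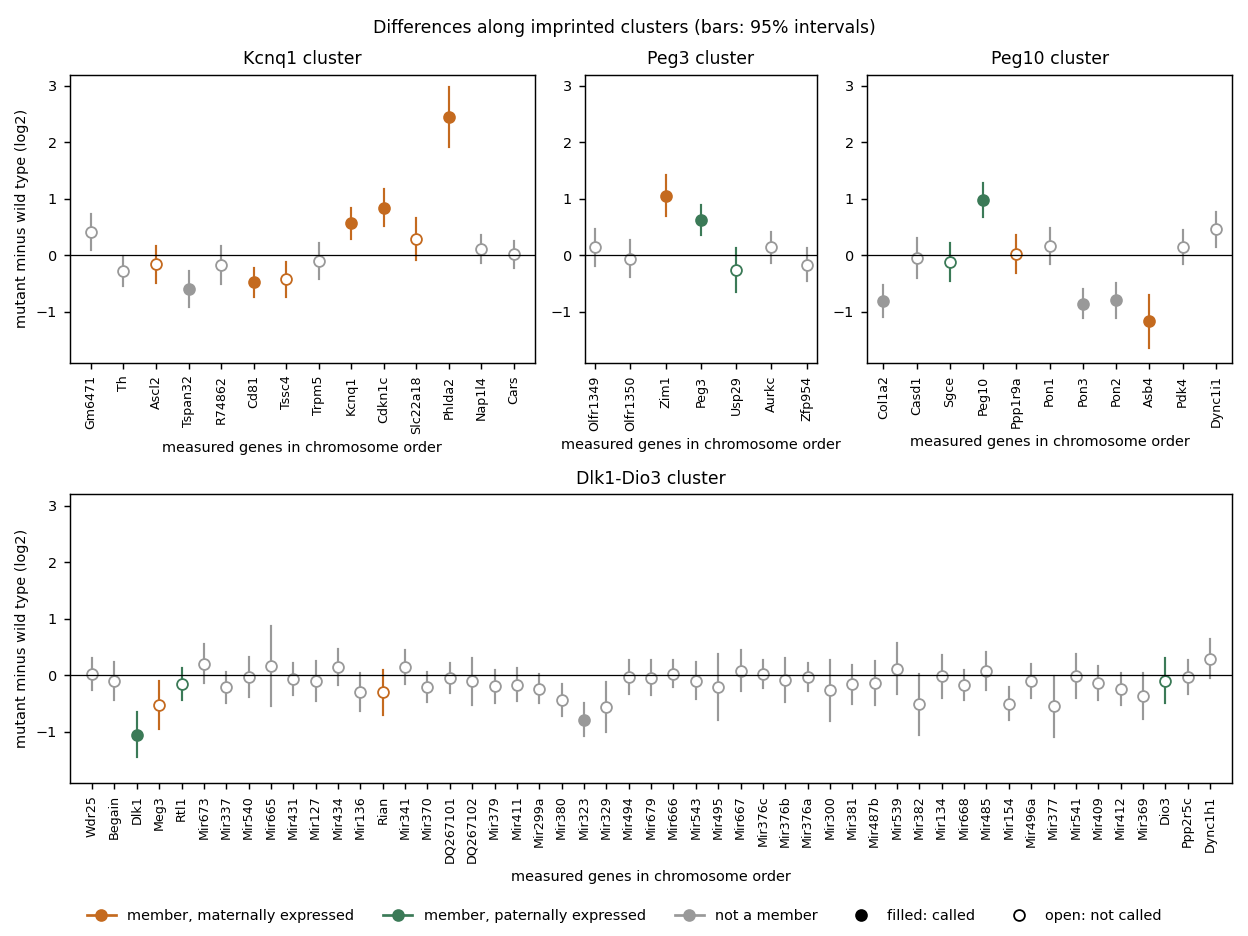
Differences between Sox9 mutant and wild-type gonads (log2, vertical axis) of measured genes in chromosome order (horizontal axis, evenly spaced) along the Kcnq1, Peg3, Peg10 and Dlk1-Dio3 clusters with 2 genes beyond each end; bars are 95% intervals and filled points are called. Kcnq1, Cdkn1c and Phlda2 lie above 0 and Tspan32 and Cd81 below it; Peg10 and Asb4 lie on opposite sides.

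The Peg3 cluster holds genes for zinc finger proteins and had 2 risers that are expressed from opposite parental copies. Zim1, maternally expressed, measured 10.49, 10.39 and 10.50 log2 on mutant 3, 4 and 6, against 9.66, 9.52 and 9.03 on wild type 1, 2 and 5. The 3 mutant arrays lay within a narrow range and above each wild-type array, of which wild type 5 was the lowest. The rise was 1.06 ± 0.16 log2 (limma adjusted p = 0.00626), or 2.08-fold. Peg3, paternally expressed and known for its part in fetal growth and maternal care, measured 12.49, 12.33 and 12.36 on mutant 3, 4 and 6 and 11.88, 11.79 and 11.65 on wild type 1, 2 and 5. It rose by 0.62 ± 0.12 log2 (limma adjusted p = 0.0150), without overlap. The call was lost without mutant 3, wild type 2 or wild type 5 (limma adjusted p up to 0.0634) and among numbers 1 to 4 alone (0.0602). Leaving out wild type 5 and mutant 4 together also lost it (limma adjusted p = 0.113). Usp29, a ubiquitin protease gene that starts beside Peg3 on the other strand, measured 6.34, 6.94 and 6.34 in the mutant and 6.92, 6.82 and 6.65 in wild type, about the background mark, and was not called (difference -0.26, 95% interval -0.65 to 0.14).

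In the Peg10 cluster 2 members moved in opposite directions. Peg10, a paternally expressed gene derived from a retrotransposon and needed in the placenta, measured 11.74, 11.60 and 12.01 log2 on mutant 3, 4 and 6, against 10.75, 10.76 and 10.90 on wild type 1, 2 and 5. It rose by 0.98 ± 0.13 log2 (limma adjusted p = 0.00354), or 1.97-fold, with mutant 6 highest. Asb4, maternally expressed and coding for a substrate receptor of a ubiquitin ligase, measured 7.46, 8.22 and 8.07 on mutant 3, 4 and 6 and 9.22, 8.80 and 9.23 on wild type 1, 2 and 5. The groups did not overlap, and mutant 3 was the lowest. Asb4 fell by 1.16 on the log2 scale (SE 0.21), which is 2.24-fold (limma adjusted p = 0.0125), and lost its call without wild type 1 (limma adjusted p = 0.0693). Ppp1r9a, which lies between them and codes for the actin-binding protein neurabin, differed by 0.03 (95% interval -0.30 to 0.36), and Sgce, epsilon-sarcoglycan, the neighbour of Peg10 on its other side, by -0.11 (-0.45 to 0.22).

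Dlk1 had the largest fall among paternally expressed members. This transmembrane and secreted protein of the Delta family, known for holding back the differentiation of fat cell precursors, measured 10.25, 10.64 and 10.17 log2 on mutant 3, 4 and 6, against 11.65, 11.10 and 11.48 on wild type 1, 2 and 5. Each mutant array lay below every wild-type array, mutant 4 being the highest mutant and wild type 2 the lowest wild type. Dlk1 fell by 1.06 on the log2 scale (SE 0.18), which is 2.08-fold (limma adjusted p = 0.00926). The call was lost without wild type 1 (limma adjusted p = 0.0503) and among numbers 1 to 4 alone (0.0531), and was kept without wild type 5, the array with liver transcripts.

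The other measured members of the Dlk1-Dio3 cluster were not called, though all 5 differences in it were below 0. Meg3, a maternally expressed non-coding RNA, measured 9.67, 9.79 and 9.33 log2 on mutant 3, 4 and 6, against 10.48, 10.09 and 9.79 on wild type 1, 2 and 5. Mutant 4 and wild type 5 were level to 2 decimals, so that the groups nearly touched, and the difference of -0.52 ± 0.19 did not pass (limma adjusted p = 0.167), except with numbers 5 and 6 as a term in the fit (0.0360). Rian, host of small nucleolar RNAs, differed by -0.30 (95% interval -0.70 to 0.10), with its mutant mean below the background mark. Rtl1, a retrotransposon-derived gene that overlaps antisense transcripts, differed by -0.16 (-0.43 to 0.12). Dio3, the enzyme that inactivates thyroid hormone, differed by -0.10 (-0.50 to 0.31) and lay below the mark in both groups. The Dio3 difference was above 0 among numbers 1 to 4 alone (0.13), without mutant 6 (0.09) and with array weights (0.009).

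The cluster also holds many microRNA genes within its maternally expressed transcripts, and other members host microRNAs too. Of 30 such genes listed, 24 had a probe set, 16 of them below the background mark in both groups, and the values read precursor sequence rather than mature microRNA. Mir323 was the 1 called, with 4.70, 4.66 and 4.94 log2 on mutant 3, 4 and 6 and 5.73, 5.41 and 5.52 on wild type 1, 2 and 5, all below background (difference -0.78 ± 0.13, limma adjusted p = 0.00964, and 0.0512 without wild type 1). That is 4.17% of the 24, beside 6.94% of all genes. Mir483, which lies in Igf2, differed by -0.08 (95% interval -0.36 to 0.20), and Mir335, which lies in Mest, by -0.10 (-0.49 to 0.29). The mature sequences from RefSeq are shown for the called gene and for those 2 hosted by coding members, with the seed, bases 2 to 8, in capitals. None of the 6 shares its seed with another mature product of the listed genes.
mmu-miR-323-3p: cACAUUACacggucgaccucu
mmu-miR-323-5p: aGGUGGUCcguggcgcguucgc
mmu-miR-483-3p: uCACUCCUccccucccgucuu
mmu-miR-483-5p: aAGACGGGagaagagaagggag
mmu-miR-335-3p: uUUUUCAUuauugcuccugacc
mmu-miR-335-5p: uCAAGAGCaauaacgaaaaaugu

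Plagl1, a paternally expressed zinc finger transcription factor also called Zac1, measured 9.76, 9.86 and 9.63 log2 on mutant 3, 4 and 6, against 10.27, 10.42 and 10.13 on wild type 1, 2 and 5. It fell by 0.52 on the log2 scale (SE 0.12, limma adjusted p = 0.0432) without overlap. The call was lost when any 1 array was left out (limma adjusted p up to 0.144) and after a second quantile normalization (0.0755). Grb10, a maternally expressed adaptor that restrains insulin and IGF signalling, was not called, with 11.05, 11.30 and 11.21 on mutant 3, 4 and 6 and 11.63, 11.57 and 11.71 on wild type 1, 2 and 5 (difference -0.45 ± 0.12, limma adjusted p = 0.0581). It passed among probe sets above the background mark, with trend and robust variance, and with numbers 5 and 6 as a term (limma adjusted p = 0.0297, 0.0206 and 0.0389).

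Igf2, the paternally expressed fetal growth factor, measured 11.83, 11.76 and 12.01 log2 on mutant 3, 4 and 6, against 11.72, 11.53 and 11.70 on wild type 1, 2 and 5. Igf2r, the maternally expressed receptor that takes IGF2 up for breakdown, measured 10.97, 11.002 and 10.94 in those mutants and 10.76, 10.86 and 10.72 in wild type. In both genes every mutant array lay above every wild-type array, by small margins, and neither was called. The difference was 0.22 log2 for Igf2 (95% interval -0.05 to 0.49, limma adjusted p = 0.376) and 0.19 for Igf2r (-0.05 to 0.43, limma adjusted p = 0.378). A difference of the size seen in Phlda2 or Zim1 lies outside these intervals.

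Mest and Copg2, which overlap at their ends and are expressed from opposite copies, stayed near 0. Mest, an enzyme-like protein of mesoderm, measured 12.65, 12.67 and 12.77 log2 on mutant 3, 4 and 6, against 12.81, 12.74 and 12.84 on wild type 1, 2 and 5 (difference -0.10, 95% interval -0.34 to 0.14). Copg2, a subunit of the vesicle coat COPI, measured 10.90, 10.94 and 11.17 in those mutants and 10.98, 11.01 and 11.10 in wild type (difference -0.02, interval -0.29 to 0.25). In both genes the groups overlapped.

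In the Prader-Willi region, the Snrpn cluster, 4 members were measured, all of them paternally expressed, and none was called by limma, with 0 at an unadjusted p under 0.05. Differences were 0.04 for Ndn, a growth suppressor of neurons, 0.10 for Magel2, which acts in protein trafficking, 0.09 for Mkrn3, a ubiquitin ligase that holds back puberty, and -0.30 log2 for Peg12. Mkrn3 lay below the background mark in both groups. The widest of these 4 intervals, that of Peg12, ran from -0.67 to 0.08.

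The remaining 8 members were not called, with differences between -0.22 (Nnat, a membrane protein of developing brain) and 0.25 log2 (Nap1l5). Impact, an inhibitor of the kinase GCN2, differed by -0.03, Gab1, a signalling adaptor, by 0.09, Zdbf2 by -0.20, Ddc, which makes dopamine and serotonin, by -0.04 and Trappc9, of a vesicle tethering complex, by -0.02. Mcts2, a retrocopy whose probes may also read its parent gene Mcts1, differed by -0.15. Ddc lay below the background mark in both groups and Nap1l5 in wild type.

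**Figure D4:**
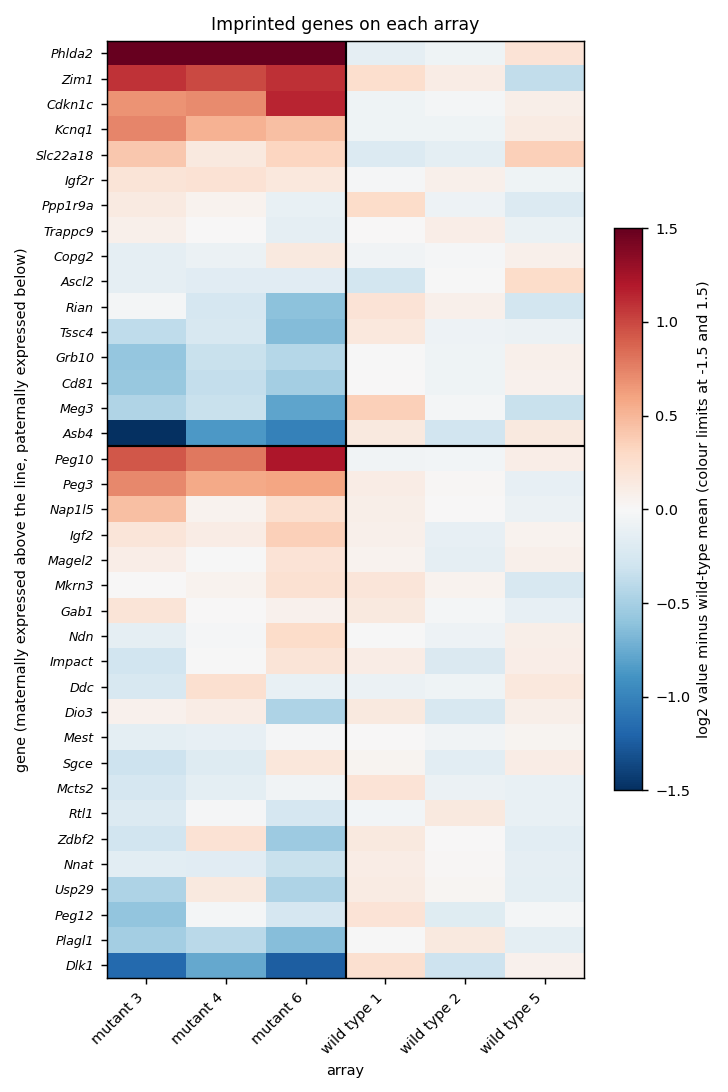
Each measured imprinted gene (rows, maternally expressed above the horizontal line) on each array (columns, Sox9 mutants left, wild types right), coloured by its log2 value minus the wild-type mean, up to the limits of the colour bar. The called genes at the top and bottom of each block differ from the wild types on all 3 mutant arrays. Phlda2, higher by 2.45 log2, passes the upper limit on all 3, so its colour understates the difference.

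Across arrays, the 6 genes called higher had median deviations from the wild-type mean of 0.83, 0.75 and 1.12 log2 on mutant 3, 4 and 6, and the 4 called lower had -0.87, -0.59 and -0.83. Mutant 4 was thus the array nearest to wild type in both sets. It was also the one with the highest Sertoli and Leydig lists among the mutants, at 8.27 and 8.44 log2, and the relation between these was not tested. The labels number the arrays through from 1 to 6 and tie no mutant to a wild type. The arrays were also split into numbers 1 to 4 and numbers 5 and 6, the latter with 1 array per group. In all 10 called members the groups do not overlap, so the sign had to be the same in both parts, and only sizes could differ. The mutant minus wild-type difference was 2.82 within 5 and 6 and 2.27 within 1 to 4 for Phlda2, 1.46 and 0.85 for Zim1, -1.31 and -0.93 for Dlk1, and 0.33 and 0.69 for Kcnq1. Over the 37 members the median SD between arrays of a group was 0.15 log2 in the mutant and 0.14 in wild type, beside 0.15 and 0.13 over all genes.

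Genes next to the called members in chromosome order were mostly not called. Among the 29 distinct measured neighbours outside the panel, up to 3 on each side, 4 were called by limma, each of them lower, which is 13.8%, beside 6.94% of all genes. The 4, picked out here because they were called, were Tspan32 (-0.59) near Cd81, Pon3 (-0.85) and Pon2 (-0.79) beside Asb4, and Col1a2 (-0.81 log2), a collagen chain gene beyond Sgce. Col1a2 was counted as a neighbour of Peg10, which rose, and Pon3 as a neighbour of both Peg10 and Asb4. Pon2 and Pon3, coding for enzymes of the paraoxonase family, and Tspan32, a tetraspanin, are themselves reported as imprinted in some tissues. No neighbour of Phlda2 outside the panel was called, among them Nap1l4, which codes for a histone chaperone, with 0.11 (95% interval -0.14 to 0.35).

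A second list held 30 further genes reported as imprinted in mouse, of which 29 were measured. Of these 1 was called higher and 4 lower, or 17.2%, beside 6.94% of all genes. Among the 29, 20 lay above the background mark in both groups and 8 below it in both. The fit above that mark again called 1 of the list higher and 4 lower, beside 13.6% of all genes in it. Ano1, a calcium-activated chloride channel, measured 8.64, 8.39 and 8.403 log2 on mutant 3, 4 and 6, against 7.51, 7.09 and 6.80 on wild type 1, 2 and 5, and rose by 1.34 ± 0.18 (limma adjusted p = 0.00305). Those called lower were Pon3, Pon2, Tspan32 and Dcn, a matrix proteoglycan that is also on the peritubular and interstitial list, at -0.72 log2. Ano1 and Pon3 kept their calls under each alternative, while Pon2 lost its call without wild type 1, Dcn without mutant 3, wild type 1 or wild type 5, and Tspan32 without any 1 array (limma adjusted p up to 0.147). The other 24 were not called, among them Airn, the antisense RNA within Igf2r, with -0.11 (limma adjusted p = 0.737).

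Of 27 genes that set, keep or erase imprints, 26 were measured, and 1 was called higher and 1 lower, or 7.69%, close to the 6.94% of all genes. Of the 26, 23 lay above the background mark in both groups. The fit above that mark called 2 genes of this list higher and 2 lower, beside 13.6% of all genes in it. Hells, a chromatin remodeller needed for DNA methylation, measured 11.63, 11.78 and 11.80 log2 on mutant 3, 4 and 6, against 11.21, 11.21 and 11.27 on wild type 1, 2 and 5 (difference 0.51 ± 0.11, limma adjusted p = 0.0272), a call lost when any 1 array was left out (limma adjusted p up to 0.108). Dppa3, a germ cell protein that shields maternal DNA from loss of methylation after fertilization and also a germ cell marker, measured 7.58, 8.88 and 8.90 on those mutants and 9.94, 9.996 and 10.08 in wild type. It fell by 1.55 on the log2 scale (SE 0.31, limma adjusted p = 0.0202) and lost its call without wild type 1, 2 or 5 (limma adjusted p up to 0.0815) and with trend and robust variance (0.0573). In 9 of the 26 the groups did not overlap, beside 28.7% of all genes. An unadjusted p under 0.05 was reached by 5 of the 26, no larger a share than the 21.7% of all genes. Besides Hells and Dppa3 these 5 were Tet1, which oxidises methylated cytosine, with -0.55 log2 (limma adjusted p = 0.0670), Kdm1b, a histone demethylase needed to set imprints in the egg, with 0.45 (0.0647), and Zfp42, with -0.59 (0.0833) and below the background mark in both groups. Among the other 21, the maintenance methyltransferase Dnmt1 differed by 0.09 log2 (95% interval -0.16 to 0.33), and Trim28 and Zfp57, which hold methylation at control regions, by -0.22 and -0.24.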

How the data were processed

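RNA of 6 pools of fetal gonads was measured on Affymetrix arrays, 3 per genotype. The values are log2 values as deposited by the authors, made with RMA per the submitters' processing notes (background correction, quantile normalization and probe set summary); the sources used here give neither software version nor build. Of 34760 rows, 6573 with identifiers below the lowest annotated one (18.9%) were left out as the array's control block, and none of them was called when fitted alone. Of 28187 probe sets, 21640 had 1 gene in the annotation table, 1321 several and 5226 none. Where a gene had several probe sets the one with the highest mean stood for it, and each measured member had 1. Gene order came from the GRCm38.p6 gene table. Differences came from limma 3.58.1, run in R 4.3.3 (its lmFit followed by its eBayes step; tests 2-sided; residual degrees of freedom 4), with Benjamini-Hochberg adjustment over all 28187 probe sets. The fit was tested on simulated data. Arrays give no read depth, and their number limits the precision.

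The members and lists were chosen with earlier results of these data known. Every member is accounted for; called members and the 10 with the highest means have their value on each array, and of the 2 further lists all called genes are named. Dnmt1, Trim28, Zfp57, Tet1, Kdm1b, Zfp42, Airn and the hosted microRNAs were chosen after their values were seen. Other settings tried were a second quantile normalization, arrays shifted to a common median, a filter at the background mark, trend and robust variance, array weights, numbers 5 and 6 as a term, numbers 1 to 4 alone, the mean of a gene's probe sets, a threshold of 0.01, leaving out each array and, chosen after seeing the data, leaving out wild type 5 and mutant 4 together. Figures were drawn with matplotlib 3.10.9.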

Additional observations from a re-analysis of the deposited data

How the results depend on the processing

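None of the 10 called members changed direction under the 16 alternatives, but for most of these settings that was fixed in advance. Fits on fewer arrays could not reverse a difference between groups without overlap, and several other settings leave the estimate itself unchanged. Phlda2, Zim1 and Peg10 were called in each of the 16, and the other 7 lost their call in at least 2. No paired analysis was possible because the groups share no label number and the labels tie no mutant array to a wild-type one; the term for numbers 5 and 6 is a split of the arrays by number, not a pairing, and raised the members called lower to 6. Left-out arrays gave 4 to 6 members called higher and 0 to 2 lower, with 0 lower without wild type 1. They gave 262 to 546 of all genes higher and 330 to 746 lower, 0 imprint control genes higher and 0 to 3 lower, and 1 to 3 other imprinted genes lower. At a threshold of 0.01 the counts were 3 members higher and 1 lower, 199 and 328 of all genes, 0 and 0 imprint control genes and 1 other imprinted gene lower. Without wild type 5 and mutant 4 they were 3 and 2 members, 199 and 405 of all genes, 0 and 0 imprint control genes and 2 other imprinted genes lower. Among numbers 1 to 4 alone 1 member, 513 of all genes, 2 imprint control genes and 1 other imprinted gene were lower, and 0 imprint control genes higher. With numbers 5 and 6 as a term 820 of all genes, 2 imprint control and 2 other imprinted genes were higher and 3 imprint control genes lower. A further quantile normalization gave 2 members lower, 2 imprint control genes higher and a median of 0.053 log2 for maternally expressed members. The filter gave 2 imprint control genes higher and 2 lower, trend and robust 2 higher, and array weights 3 lower. The causes were not tested, except that fewer arrays leave fewer degrees of freedom. Members near background, 3 of 37 in both groups, are measured with compressed differences.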
